A study of Mus musculus with 8 samples.

Results

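A group of 39 genes typical of macrophages and other myeloid cells was followed in RNA-seq counts of CD8+ T cells sorted from mouse tumors. The genes were chosen by symbol as known myeloid genes, with earlier results of these data in view, and each of the 39 was found among the 55335 genes of the count table. The cells came from C57BL/6 mice aged 6 to 10 weeks that carried implanted MC38 tumors, a mouse colon carcinoma line. Samples S1 to S4 were wildtype (WT, *Lsd1*f/f), and they were compared with 4 LSD1-deficient samples (KO, *Cd4-Cre*+*Lsd1*f/f, S5 to S8). Both groups carry the floxed *Lsd1* alleles, and *Cd4-Cre* deletes the gene in developing T cells, those of the CD4 lineage included, not in macrophages. WT samples were pools of 2 mice and KO samples were single mice, so pooling and genotype cannot be told apart. Live leukocytes positive for CD45.2, TCRβ, CD8, CD44 and PD-1, 10000 to 20000 per sample, were sorted on day 18 by the protocol, whereas the design text gives 14 days.

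Tumor macrophages develop mostly from blood monocytes under the growth factor receptor CSF1R and the transcription factor PU.1. They engulf dying cells and antibody-coated material through scavenger and Fc receptors, digest them with lysozyme and lysosomal proteases, and secrete complement C1q and apolipoprotein E. The sort gate required a T cell receptor and CD8, and none of the genes below was used in it. Some of them, such as the cathepsins, are active in many cell types, T cells among them.

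Total counts on genes ranged from 11657807 to 30295406 per sample, and 3 counts, taken as the floor, corresponded to 0.106 to 0.25 CPM, which are counts scaled to a common library size. Values below are scaled with edgeR's TMM factors, as mean ± SD over n = 4 samples. The targeted gene, *Kdm1a*, which encodes LSD1, was at 44.9 ± 1.87 CPM in WT and 30.7 ± 4.03 CPM in KO (log2 fold change -0.55, edgeR adjusted p = 0.0163), and KO samples were below WT samples without overlap. The deleted exons were not looked at separately, since the counts are per gene. T cell RNA was abundant in both groups, which the gate on TCRβ and CD8 fixed in advance. Its level does not measure a small share of other cells. The 14 genes of a CD8+ T cell list summed to 5706 to 6854 CPM in WT and 5425 to 6520 CPM in KO, and *Cd8a* was at 1340 ± 93.3 and 1109 ± 107 CPM. All 39 macrophage and myeloid genes together summed to 954 to 1955 CPM in WT and 634 to 795 CPM in KO. On a scale of CPM per kilobase of exon, *C1qb* reached 53.7 in WT and 4.48 in KO, against 369 and 305 for *Cd8a*. In bulk samples, fewer cells of a type and less RNA per cell cannot be told apart.

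Of the 39 genes, 37 passed the filter on low counts, and *Mrc1* and *Cd163* did not. In KO samples 19 of the 37 were lower and 1, *Cd86*, was higher, called by edgeR's quasi-likelihood test over all 15378 genes tested where the fold exceeded 1.5 and the adjusted p was below 0.01. Of all tested genes, 1.99% were called lower and 2.91% higher. The median log2 fold change of the 37 genes was -2.28, against -0.01 over all genes tested. Every KO sample lay below every WT sample in 25 of the 37, as in 8.28% of all genes, every KO sample lay above in 1, as in 8.99% of all genes, and the groups overlapped in 11. The remaining 17 genes did not pass the test, 4 of them at an adjusted p between 0.01 and 0.05. The samples were not alike within WT. S3 was the highest WT sample in 30 of the 37 genes, as in 26.0% of all genes tested. Without S3, 13 of the 38 genes that then passed the filter were called lower. The filter keeps a gene that is high in WT alone, as *Mertk* was, so these counts describe the genes that passed and not all 39. The heat map of all 39 genes shows both the step between genotypes and the stronger color of S3.

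**Figure D1:**
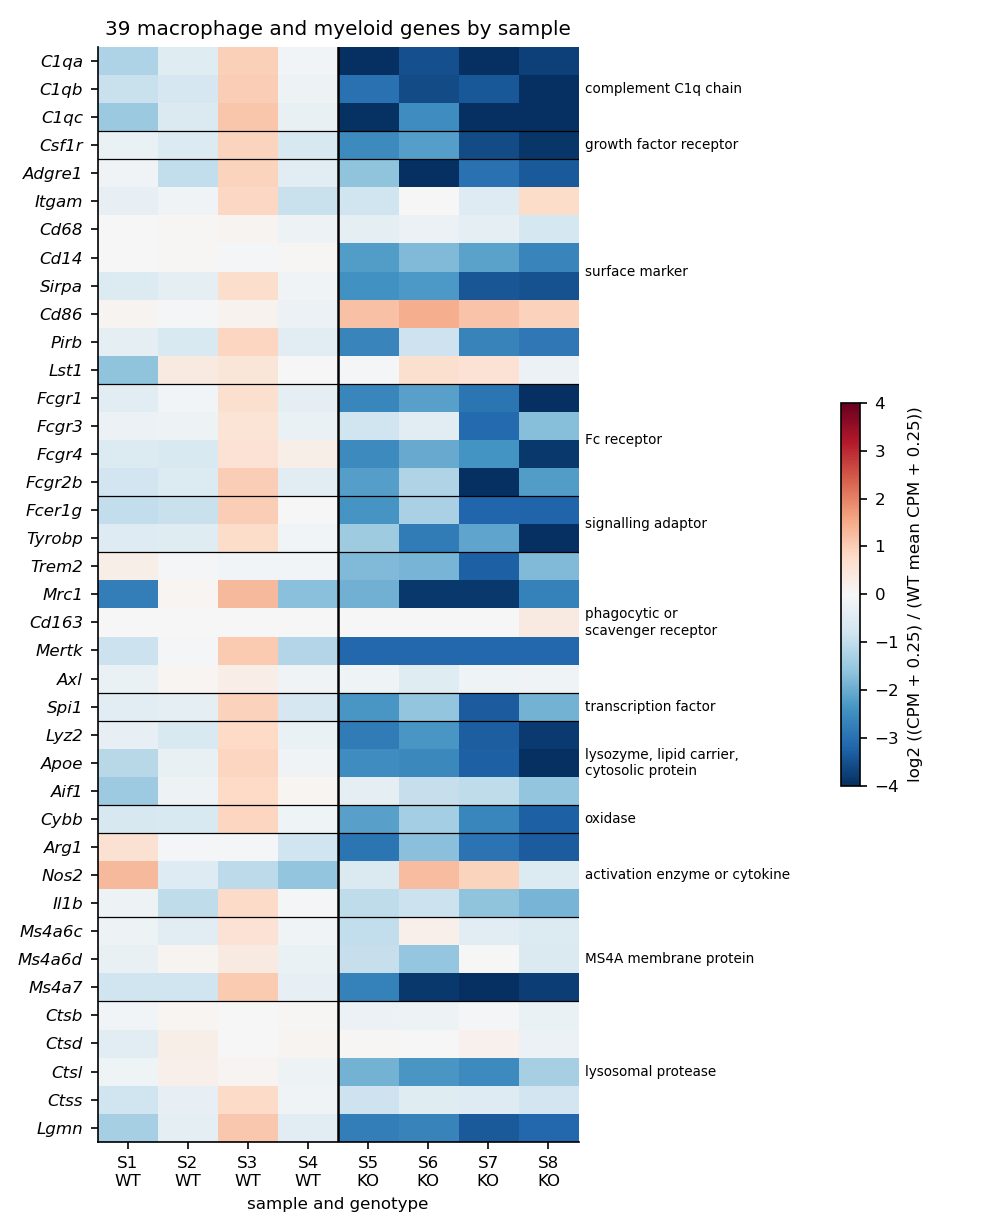
Each row is 1 of the 39 genes, grouped by role, and each column 1 sample, with WT left and KO right of the black line. Color gives the log2 ratio of a sample's CPM to the WT mean, both raised by 0.25 CPM and limited to a range of -4 to 4. Most rows turn blue in S5 to S8, *Cd86* turns red, *Ctsb*, *Ctsd*, *Cd68* and *Axl* stay pale, and S3 is the reddest WT column.

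The 3 chains of complement C1q, which bind antibody-coated and dying cells and start the classical complement pathway, were all called lower in KO. Their genes lie side by side on the minus strand of chromosome 4 (GRCm38, 136880129 to 136898803). *C1qa* was at 21.0, 35.5, 97.1 and 46.4 CPM in the WT samples S1 to S4, and at 2.69, 4.12, 2.67 and 3.55 CPM in the KO samples S5 to S8. The highest KO sample was thus far below the lowest WT sample, and S3 stood above the other WT samples. The mean fell 15.3-fold (log2 fold change -3.93, SE 0.38, edgeR adjusted p = 3.32e-06). *C1qb*, at 31.4, 36.6, 114.6 and 51.0 CPM in WT and 7.22, 4.69, 5.34 and 2.25 CPM in KO, had a log2 fold change of -3.61 (SE 0.40, edgeR adjusted p = 1.42e-05). *C1qc*, at 17.8, 33.7, 109.0 and 41.0 CPM in WT and 3.02, 8.73, 2.34 and 2.11 CPM in KO, had a log2 fold change of -3.68 (SE 0.51, edgeR adjusted p = 0.00014). In each chain S3 was the highest WT sample and S1 the lowest, and in no chain did the groups overlap. Summed, the chains took 70.2 to 321 CPM in WT and 7.91 to 17.5 CPM in KO.

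*Csf1r*, the receptor on which most macrophages depend for survival, was at 37.4, 31.0, 82.9 and 28.5 CPM in WT and 7.42, 9.54, 3.51 and 2.78 CPM in KO. S3 was again highest and the groups did not overlap. The log2 fold change was -2.97 (SE 0.39, edgeR adjusted p = 7.62e-05). *Hmgxb3*, on the opposite strand of the same locus, held 238% as many counts as *Csf1r*. Whether the counting used strand is not given in the sources used here, so reads of the 2 genes cannot be told apart where they overlap. *C1qa*, *C1qb* and *Csf1r* served as anchors, and the mean of their log2 CPM was the anchor score of a sample. It reached 4.87, 5.10, 6.61 and 5.35 in the WT samples, in order, against 2.43, 2.54, 1.93 and 1.56 in the KO samples, a difference of -3.37 (exact two-sided permutation test, n = 4 per group, p = 0.0286, the smallest that 70 arrangements can give). The anchors are among the genes chosen with earlier results of these data known, so this p-value describes the separation and is no independent evidence. Without S3 the difference in score was -3.0. The score spanned a 3.33-fold range within WT and a 1.98-fold range within KO. The lowest score belonged to S8, which was also the most deeply sequenced sample, and the part of depth in this was not tested.

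The 250 bases before the RefSeq transcription start are shown for *C1qb*, *C1qc* and *Lyz2*, which fell in KO and rose and fell with the anchors within a genotype. They are also shown for *Ctsd*, which was not called and had an r of 0.31 with the anchors. By the GENCODE ends of the genes, the windows of *C1qc*, *Lyz2* and *Ctsd* lie partly inside the gene. Macrophage promoters are known for sites of PU.1, an ETS family factor that binds around a GGAA core. RefSeq windows (GRCm38.p6) matched 26 of the 39 genes by symbol, with 31 windows. Capitals mark AGGAAGT, a 7-letter form of such a site, read on either strand, so that it appears below as its reverse complement ACTTCCT. All 4 sequences are written 5′ to 3′ in the direction of the gene.
*C1qb*, chr4:136886201-136886450, minus strand: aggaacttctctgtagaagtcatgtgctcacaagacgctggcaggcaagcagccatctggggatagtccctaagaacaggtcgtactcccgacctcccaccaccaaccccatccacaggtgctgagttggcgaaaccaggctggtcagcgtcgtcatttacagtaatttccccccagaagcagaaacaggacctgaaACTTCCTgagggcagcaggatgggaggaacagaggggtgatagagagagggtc
*C1qc*, chr4:136892915-136893164, minus strand: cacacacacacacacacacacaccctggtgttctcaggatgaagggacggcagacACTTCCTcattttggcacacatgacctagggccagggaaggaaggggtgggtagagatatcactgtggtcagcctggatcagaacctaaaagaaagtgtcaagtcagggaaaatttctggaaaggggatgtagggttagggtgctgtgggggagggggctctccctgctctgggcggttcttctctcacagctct
*Lyz2*, chr10:117282273-117282522, minus strand: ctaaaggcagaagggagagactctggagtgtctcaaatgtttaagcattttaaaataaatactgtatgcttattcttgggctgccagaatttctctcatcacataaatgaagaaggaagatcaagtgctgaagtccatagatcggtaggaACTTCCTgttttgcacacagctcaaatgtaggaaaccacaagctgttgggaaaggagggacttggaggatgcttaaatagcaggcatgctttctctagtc
*Ctsd*, chr7:142387828-142388077, minus strand: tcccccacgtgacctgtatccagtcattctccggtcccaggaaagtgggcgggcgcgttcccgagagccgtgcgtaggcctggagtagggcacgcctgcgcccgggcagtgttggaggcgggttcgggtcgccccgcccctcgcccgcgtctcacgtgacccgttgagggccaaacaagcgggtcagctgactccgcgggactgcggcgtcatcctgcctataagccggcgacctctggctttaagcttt
The motif began 53 bases before the start in *C1qb*, 195 in *C1qc* and 100 in *Lyz2*. It was in 8 of the 31 windows, those of *C1qb*, *C1qc*, *Fcgr1*, *Fcgr4*, *Lyz2*, *Mrc1*, *Ms4a6c* and *Pirb*, and in 7.69% of all 32851 windows of the table. The longer form GAGGAAGT, which contains it, was in 3 of the 31 and in 2.44% of all. The motif and its length were chosen after these windows had been searched with both forms, and a match is a run of letters, not a binding site. Of the genes whose windows held the motif, *C1qb*, *C1qc*, *Fcgr1*, *Fcgr4* and *Lyz2* were called lower. *Ms4a6c* and *Pirb* were not called, and *Mrc1* was not tested. The 4 windows shown are examples and give no contrast between genes that rose and fell with the anchors and others.

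The surface markers split. *Adgre1*, which encodes the macrophage marker F4/80, was at 11.6, 6.43, 24.2 and 9.32 CPM in WT and 4.00, 0.485, 1.42 and 1.02 CPM in KO. The groups did not overlap, although S5 came close to the lowest WT sample (log2 fold change -2.88, SE 0.54, edgeR adjusted p = 0.00189, and 0.013 without S3). *Cd14*, the co-receptor for bacterial lipopolysaccharide, was unusual for how even it was, at 12.6, 13.1, 11.9 and 13.0 CPM in WT and 2.50, 3.56, 2.67 and 1.83 CPM in KO. It fell (log2 fold change -2.28, SE 0.29, edgeR adjusted p = 6.16e-05) without any excess in S3, where it was lowest among WT samples. *Sirpa*, whose product binds the "don't eat me" signal CD47, did show the S3 excess, at 19.5, 21.3, 46.6 and 25.7 CPM in WT and 5.06, 5.58, 2.42 and 2.29 CPM in KO (log2 fold change -2.90, SE 0.34, edgeR adjusted p = 2.55e-05). *Pirb*, a paired inhibitory receptor of myeloid cells, had every KO sample below every WT sample but did not pass the test (log2 fold change -2.16, edgeR adjusted p = 0.0215). Of its 42-base stretches, 37.5% also occurred in other annotated genes, so its counts are uncertain.

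*Cd68* and *Itgam* are used as general markers of macrophages and myeloid cells, and neither passed the test. *Cd68*, a lysosomal glycoprotein, was at 28.8, 29.1, 30.8 and 24.7 CPM in WT and 22.3, 24.2, 21.9 and 17.3 CPM in KO. All 4 KO samples were below the lowest WT sample, S6 by the least (log2 fold change -0.41, SE 0.16, edgeR adjusted p = 0.124). *Itgam*, the CD11b integrin chain that activated CD8+ T cells and NK cells can also express, was at 6.51, 7.52, 14.7 and 4.29 CPM in WT and 4.60, 8.16, 5.68 and 14.0 CPM in KO. These groups overlapped over their whole range (log2 fold change -0.01, SE 0.39, edgeR adjusted p = 0.995). In addition, 66.7% of its 42-base stretches were shared with other annotated genes, mainly a joint annotation named *Gm49368*. *Lst1*, a small myeloid membrane adaptor, stayed at 0.523 to 3.02 CPM in WT and 1.76 to 3.39 CPM in KO (edgeR adjusted p = 0.83).

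*Cd86* was the only one of the 37 genes called higher in KO. It encodes a ligand of CD28 and CTLA-4 that antigen-presenting cells display, and activated T cells can express it as well. It was at 26.0, 23.4, 26.9 and 20.5 CPM in WT and 54.8, 66.2, 53.6 and 45.8 CPM in KO. Every KO sample exceeded every WT sample, and the mean rose 2.27-fold (log2 fold change 1.18, SE 0.15, edgeR adjusted p = 6.02e-05).

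Fc receptors bind the constant part of antibodies, and the activating ones signal for uptake through the adaptor chain encoded by *Fcer1g*. All 4 Fc receptor genes had KO samples below WT samples without overlap, and 3 passed the test. *Fcgr1*, the high-affinity receptor, was at 10.6, 13.4, 22.5 and 11.2 CPM in WT and 2.17, 2.99, 1.67 and 0.598 CPM in KO (log2 fold change -3.0, SE 0.42, edgeR adjusted p = 0.000148). *Fcgr4*, an activating receptor, was at 10.2, 9.86, 22.4 and 17.7 CPM in WT and 2.36, 3.56, 2.67 and 0.809 CPM in KO (log2 fold change -2.71, SE 0.41, edgeR adjusted p = 0.00031). *Fcgr2b*, the inhibitory receptor, fell from 20.4 ± 13.4 to 4.53 ± 3.21 CPM (log2 fold change -2.17, SE 0.48, edgeR adjusted p = 0.00662). S3 reached 40.4 CPM against 12.0 to 15.3 CPM in the other WT samples. The call was lost in 6 of the 8 fits that left out 1 sample, with an edgeR adjusted p of up to 0.0417, without S3. *Fcgr3*, a low-affinity activating receptor, ranged from 9.32 to 16.5 CPM in WT and from 1.09 to 8.24 CPM in KO and did not pass the test (log2 fold change -1.25, edgeR adjusted p = 0.0772). It shared 11% of its 42-base stretches with *Fcgr2b*. *Fcer1g*, the common Fc receptor chain, fell from 13.4 ± 9.25 to 2.56 ± 1.93 CPM (log2 fold change -2.40, SE 0.51, edgeR adjusted p = 0.00493), a call lost without S3 (adjusted p = 0.0341), S4, S5, S7 or S8. *Tyrobp*, which encodes the adaptor DAP12, was at 3.78, 3.87, 9.22 and 5.03 CPM in WT and 1.90, 0.566, 1.09 and 0 CPM in KO, and did not pass the test (log2 fold change -2.65, edgeR adjusted p = 0.0401). *Fcgr2b*, *Fcgr4*, *Fcgr3* and *Fcer1g* lie within 1 stretch of chromosome 1 (170958617 to 171234365).

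Most of the receptors for dying cells and debris held few counts. *Mertk*, a kinase receptor for uptake of apoptotic cells, had 17, 34, 53 and 9 counts in WT and 0 counts in all 4 KO samples. Against a floor of 3 counts over the KO group, or 0.0441 CPM, it was at least 44.8-fold lower in KO. It passed the filter through WT alone, where it would fall under a filter of 10 counts in 4 samples, and its call (edgeR adjusted p = 0.00326) was lost without S3 (adjusted p = 0.0209), S7 or S8 and could not be made without S1 or S2. *Trem2*, a lipid receptor of tumor macrophages, was even within WT, at 2.56, 2.07, 1.96 and 1.98 CPM, and at 0.459, 0.404, 0 and 0.457 CPM in KO. The groups did not overlap, and it did not pass the test (log2 fold change -2.63, SE 0.88, edgeR adjusted p = 0.0633). *Mrc1*, the mannose receptor CD206, had 5, 66, 108 and 11 counts in WT and 11, 0, 0 and 9 in KO, below the filter. *Cd163*, a hemoglobin scavenger receptor, had 2 counts in all 8 samples together. *Axl*, a relative of *Mertk*, was unlike the others, at 41.4 to 60.3 CPM in WT and 36.0 to 45.0 CPM in KO with overlapping groups (log2 fold change -0.24, SE 0.14, edgeR adjusted p = 0.338).

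*Lyz2* encodes the lysozyme of macrophages and neutrophils and *Apoe* a lipid carrier. At 63.9 CPM per kilobase of exon in WT, *Lyz2* had the highest level of the genes called lower, and *Apoe* was at 37.4 CPM per kilobase. *Lyz2* was at 66.8, 54.8, 144.8 and 69.9 CPM in WT and 12.0, 16.4, 8.26 and 5.73 CPM in KO (log2 fold change -3.01, SE 0.32, edgeR adjusted p = 9.03e-06). *Apoe* was at 36.6, 65.3, 145.3 and 73.1 CPM in WT and 14.2, 13.2, 8.18 and 4.36 CPM in KO (log2 fold change -3.02, SE 0.38, edgeR adjusted p = 5.22e-05). Both fell about as far as *Csf1r*, with S3 highest in WT and S8 lowest in KO. Of the 42-base stretches of *Lyz2*, 21.3% were shared with *Lyz1*. *Cybb*, the catalytic chain of the phagocyte oxidase, also had S3 highest in WT and S8 lowest in KO, at 26.2, 27.1, 75.0 and 36.4 CPM in WT and 8.86, 15.9, 6.51 and 4.08 CPM in KO (log2 fold change -2.24, SE 0.38, edgeR adjusted p = 0.000861). *Spi1*, which encodes PU.1, fell short of the threshold with 4.01, 4.20, 10.8 and 3.46 CPM in WT and 0.919, 1.70, 0.334 and 1.34 CPM in KO (log2 fold change -2.36, SE 0.57, edgeR adjusted p = 0.0111). *Aif1*, the cytosolic protein IBA1, ranged from 2.27 to 11.7 CPM in WT and from 2.07 to 4.99 CPM in KO with overlap (edgeR adjusted p = 0.203).

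Genes of activation states differed from each other. *Arg1*, an arginine-degrading enzyme of suppressive myeloid cells, was at 5.64, 3.43, 3.51 and 1.98 CPM in WT and 0.263, 0.970, 0.250 and 0.141 CPM in KO, highest in S1 and not in S3. It passed the test narrowly (log2 fold change -3.20, SE 0.74, edgeR adjusted p = 0.00918), and the call was lost when any sample but S6 was left out, with an adjusted p of up to 0.0444, without S1. *Nos2*, the inducible nitric oxide synthase, was at 6.45, 1.63, 1.06 and 0.660 CPM in WT and 1.58, 6.14, 4.76 and 1.58 CPM in KO with overlapping groups (edgeR adjusted p = 0.735). *Il1b*, the inflammatory cytokine, was at 13.9, 7.96, 27.4 and 15.3 CPM in WT and 7.81, 8.73, 5.17 and 4.29 CPM in KO and did not pass the test (log2 fold change -1.32, SE 0.34, edgeR adjusted p = 0.0174). Among the MS4A membrane proteins, which sit together on chromosome 19, *Ms4a7* fell from 6.95 ± 5.16 to 0.344 ± 0.361 CPM (log2 fold change -4.27, SE 0.73, edgeR adjusted p = 0.000961, and 0.0124 without S3). *Ms4a6c* and *Ms4a6d* overlapped between groups, with log2 fold changes of -0.38 and -0.68 (edgeR adjusted p = 0.398 and 0.178). *BE692007*, on the opposite strand at *Ms4a6c*, held 285% as many counts as that gene. *Ms4a6c* also shared 15.1% of its 42-base stretches with other annotated genes.

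The lysosomal proteases differed among themselves, with 2 of 5 called lower. *Lgmn*, the asparagine-specific protease legumain, was at 10.98, 21.6, 59.1 and 20.9 CPM in WT and 3.94, 4.20, 2.50 and 2.99 CPM in KO (log2 fold change -3.04, SE 0.41, edgeR adjusted p = 9.57e-05). *Ctsl*, cathepsin L, was at 14.9, 19.3, 18.0 and 14.6 CPM in WT and 4.33, 3.15, 2.67 and 6.54 CPM in KO (log2 fold change -1.97, SE 0.29, edgeR adjusted p = 0.000202). It too was even within WT, with S3 below S2. *Ctss*, the cathepsin that trims the invariant chain for antigen presentation, was at 57.5, 80.5, 173.2 and 92.2 CPM in WT and 57.0, 72.0, 70.1 and 59.6 CPM in KO. It carried the S3 excess, but its groups overlapped and it did not pass the test (log2 fold change -0.64, SE 0.23, edgeR adjusted p = 0.0927). *Ctsd* had the highest level per kilobase of the 39 genes, at 105 CPM per kilobase in both WT and KO, and *Ctsb* was at 31.1 and 27.4 CPM per kilobase. Of the 42-base stretches of *Ctsd*, 32.7% were shared with *Gm49369*, which overlaps it on the same strand and held 0 counts. *Ctsb* and *Ctsd*, which digest proteins in the lysosomes of most cells, gave log2 fold changes of -0.19 (SE 0.10, edgeR adjusted p = 0.252) and 0.00 (SE 0.13, edgeR adjusted p = 0.994). *Ctsb* and *Ctsd* together summed to 357 to 486 CPM in WT and 365 to 463 CPM in KO. Without the pair, the remaining 37 genes summed to 597 to 1523 CPM in WT and 269 to 386 CPM in KO. The plots of single genes show these shapes side by side.

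**Figure D2:**
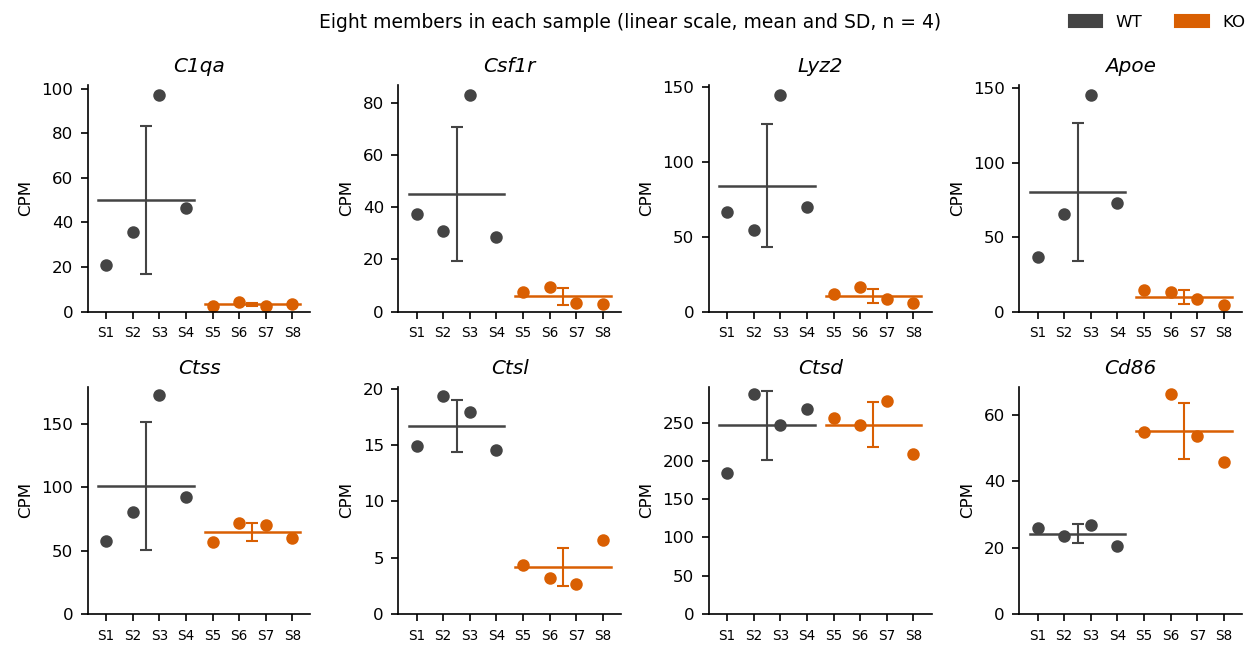
Each panel plots the CPM of 1 gene (vertical axis, linear, from 0) in the 8 samples, with WT in grey and KO in orange. Lines are group means and bars SD over n = 4 samples. *C1qa*, *Csf1r*, *Lyz2* and *Apoe* peak in S3 and are low in KO, *Ctss* peaks in S3 but overlaps, *Ctsl* is low in KO without a peak in S3, *Ctsd* is level, and *Cd86* is higher in KO.

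The genes were then split by whether they rose and fell with the anchors inside each genotype, which leaves out the difference between genotypes. For each gene, deviations of log2 CPM from the genotype mean were correlated with those of the anchor score over the 8 samples (for an anchor, with the score of the other anchors). A Pearson r of 0.7 or more that was positive in each genotype was taken as following the anchors, and an r under 0.3 as not following. The points share libraries, depth and scaling, and the r values are descriptions without a test. By this rule 14 of the 37 genes followed the anchors, as did 3.68% of all genes tested, 7 did not follow, as did 75.1% of all, and 16 lay in between. Without S3, 12 followed and 13 did not, so the class that did not follow depends on S3. The 14 were *C1qb*, *C1qc*, *Sirpa*, *Pirb*, *Fcgr1*, *Fcgr4*, *Fcer1g*, *Lyz2*, *Apoe*, *Aif1*, *Cybb*, *Il1b*, *Ctss* and *Lgmn*. The highest r was 0.93, in *Sirpa* and *Apoe*, followed by *Lyz2* and *Cybb* at 0.92. Since the anchor score peaks in S3, genes chosen this way tend to peak there too. Of the 14, 10 were called lower in KO, and *Pirb*, *Aif1*, *Il1b* and *Ctss* were not. Their median log2 fold change was -2.80.

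The 14 genes summed to 316, 389, 990 and 479 CPM in the WT samples and to 132, 168, 120 and 93.1 CPM in the KO samples. The sum of the 7 genes that did not follow was nearly level within WT, at 220, 246, 241 and 231 CPM, and stood at 177, 186, 210 and 187 CPM in KO. Since these genes were picked for not moving with the anchor score, a sum without a peak in S3 is partly set by the rule. These 7 were *Itgam*, *Trem2*, *Arg1*, *Nos2*, *Ms4a6d*, *Ctsb* and *Ctsl*, and *Ctsb* made up most of their sum. Only *Arg1* and *Ctsl* of the 7 were called, both lower. *Ctsl* had an r of -0.15 and *Trem2* an r of 0.03, while their levels in KO were 4.00-fold and 6.49-fold below WT. *Nos2* had the lowest r, at -0.25, and *Ctsb* an r of 0.01.

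Of the anchors, *C1qa* and *Csf1r* fell in between. *C1qa* had an r of 0.59 with the score of *C1qb* and *Csf1r*, positive in WT and negative in KO, where it held only 32 to 101 counts per sample. *Csf1r* had an r of 0.69, just under the limit, and *Mertk*, without a count in KO, could be compared in WT alone. *Cd86* had an r of 0.57, positive in each genotype, while its difference between genotypes was opposite to theirs. *Cd14* had an r of 0.30, negative in WT. Of the 14 genes that followed, 11 kept the class whichever single sample was left out. *C1qb* lost it without S3 or S8, *Pirb* without S3, and *Ctss* without S3, S6 or S8.

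**Figure D3:**
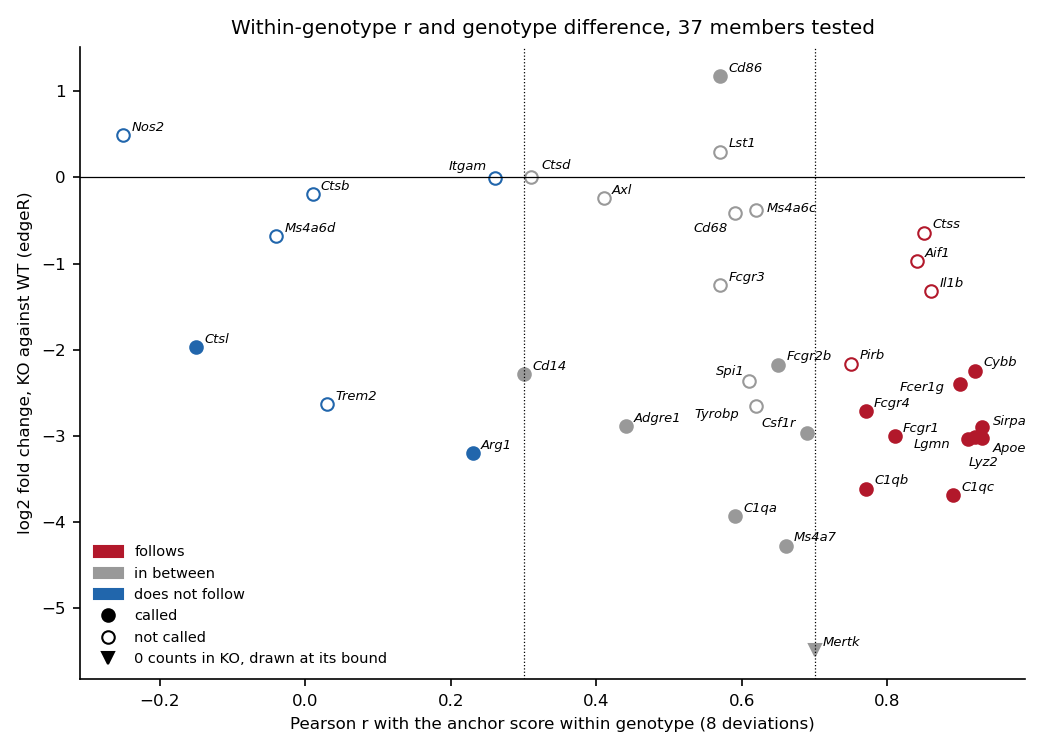
Each point is 1 of the 37 genes tested. The horizontal axis gives its r with the anchor score within genotype, the vertical axis its log2 fold change in KO against WT, dotted lines mark r of 0.3 and 0.7, and filled points were called. The triangle for *Mertk* stands at its bound. Genes with high r run from *Ctss* at -0.64 to *C1qc* at -3.68, and *Ctsl*, *Arg1*, *Trem2* and *Cd14* lie low on the plot with r of 0.30 or less.

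The level of each gene relative to the anchors was also compared, as log2 CPM minus the anchor score of the same sample. Because the anchors fell, a gene with no change rises on this scale, as 90.7% of all genes tested did without overlap between groups. The ratio overlapped between WT and KO in 9.33% of all genes tested and, leaving out the 3 anchors, in 16 of 34 genes. *Lyz2* had a ratio of 0.57 to 1.19 in WT and 1.00 to 1.51 in KO, and *Apoe* one of 0.33 to 0.93 and 0.61 to 1.42. *Fcgr1*, *Fcgr4*, *Sirpa*, *Adgre1*, *Spi1*, *Tyrobp*, *Arg1* and *Ctsl* overlapped as well. In the remaining 18 genes the ratio was higher in every KO sample, and in none was it lower. *Cybb*, *Fcer1g* and *Lgmn*, although called lower and following the anchors, were among these 18, with mean ratios 1.14, 1.02 and 0.61 higher in KO. *Ctss* rose by 2.84 and *Il1b* by 2.15 on this scale. *Cd86* had the largest shift, from -0.89 to 3.66.

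Other genes of macrophages, 89 in all, were taken from a list compiled for this comparison. Of 74 that passed the filter, 25 were called lower, 4 higher and 45 were not called, with a median log2 fold change of -0.95 and 13 that followed the anchors. Of all genes tested, 1.99% were called lower, 2.91% were called higher and 3.68% followed the anchors. *Mpeg1*, which encodes the pore protein perforin-2, fell from 137 ± 73.8 to 14.0 ± 6.75 CPM (log2 fold change -3.30, SE 0.34, edgeR adjusted p = 6.93e-06). *Spp1*, the matrix protein osteopontin, was at 28.4, 74.6, 53.3 and 48.9 CPM in WT and 3.81, 7.03, 5.17 and 3.27 CPM in KO, highest in S2 and not in S3 (log2 fold change -3.44, SE 0.29, edgeR adjusted p = 6.52e-07). The complement receptors *C3ar1* and *C5ar1* and the inhibitory receptor *Cd33* had log2 fold changes of -3.23, -3.13 and -3.92 (edgeR adjusted p = 0.00106, 0.00403 and 0.00738). The 4 called higher were *Ccr2*, *Tlr7*, *Ctsz* and *Lgals3*, of which activated T cells are known to express *Ccr2* and *Lgals3*. *Irf8*, a myeloid transcription factor that T cells also express, and *Psap*, a lysosomal lipid protein, were called lower with log2 fold changes of -0.74 and -0.72 (edgeR adjusted p = 0.000419 and 0.00076), and *Plek*, which codes for pleckstrin, was at 352 ± 46.4 and 366 ± 53.3 CPM (edgeR adjusted p = 0.846).

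MHC class II molecules present peptides to CD4+ T cells and mark macrophages, dendritic cells and B cells. All 7 genes tested followed the anchors within genotype, as did 3.68% of all genes, with S3 highest in WT in each. Of the 7, 5 were called lower, as were 1.99% of all genes. *H2-Eb1* was at 32.9, 40.1, 96.0 and 64.9 CPM in WT and 11.4, 15.1, 6.93 and 6.26 CPM in KO (log2 fold change -2.57, SE 0.32, edgeR adjusted p = 5.25e-05). *H2-Aa*, *H2-Ab1*, *H2-DMb1* and the transactivator *Ciita* had log2 fold changes of -1.93 to -2.25. *Cd74*, the invariant chain, was at 110.7 to 338 CPM in WT and 144 to 204 CPM in KO and did not pass the test (log2 fold change -0.26, edgeR adjusted p = 0.591). *Cd74* and *Ctss*, which act in the same pathway, were thus alike in having an S3 excess and overlapping groups. The part of dendritic cells and B cells in the class II values was not tested.

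Lists for other cells held few genes that passed the filter, so their counts of called genes are small and give no contrast with the macrophage genes. Of all tested genes, 1.99% were called lower and 2.91% higher. Of 12 neutrophil genes, 3 passed the filter and 0 were called. *S100a8*, *S100a9* and *Ly6g*, used here as neutrophil markers, had 0 counts in WT and 8, 0 and 5 in KO. The 12 genes summed to 3.78 to 10.4 CPM in WT and 5.66 to 15.4 CPM in KO. *Mpo*, the azurophilic granule enzyme of neutrophils and their precursors, followed the anchors with an r of 0.92 and stood at 1.22 to 3.26 CPM in WT and 3.41 to 11.9 CPM in KO (log2 fold change 1.93, edgeR adjusted p = 0.0142), the opposite direction. Of 10 dendritic cell genes, 3 were tested and *Cacnb3* was called higher, from 4.27 ± 2.22 to 19.3 ± 5.18 CPM (edgeR adjusted p = 0.000222). *Xcr1*, *Clec9a* and *Clec10a*, picked from the list after their values were seen, had 66, 48 and 54 counts in WT and 5, 0 and 0 in KO. All 10 genes of the list summed to 21.6 to 24.0 CPM in WT and 20.9 to 31.8 CPM in KO, with overlapping groups. Of 4 B cell genes tested, *Ighm* was called lower, from 61.7 ± 14.4 to 21.5 ± 13.6 CPM (edgeR adjusted p = 0.00283), with an r of -0.17. The B cell marker *Ms4a1* had 2 counts in WT and 0 in KO. Of 2 fibroblast or endothelial genes tested, *Pecam1* was called higher, from 22.9 ± 3.06 to 63.7 ± 9.18 CPM (edgeR adjusted p = 5.23e-06). *Cdh5* and *Kdr*, which define endothelium, had 2 and 9 counts in WT and 7 and 0 in KO. None of the 4 NK cell, 1 mast cell or basophil and 2 epithelial genes tested was called. Of the 14 CD8+ T cell genes, 12 were not called and *Cd44* and *Cd2* were called higher (log2 fold changes 0.86 and 0.80, edgeR adjusted p = 0.000107 and 6.73e-05). CD44 was itself a marker of the sort gate.

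**Figure D4:**
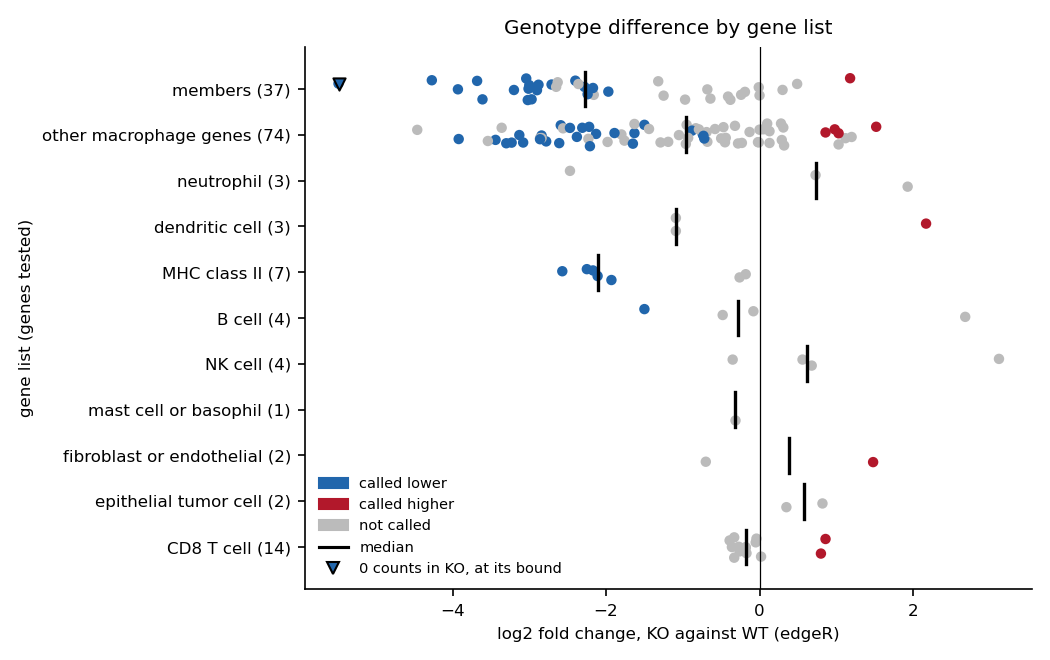
Each point is 1 gene that passed the filter, placed by its log2 fold change in KO against WT, with the gene lists on the vertical axis and their numbers tested in brackets. Blue points were called lower, red higher and grey not called, black bars are medians, and the triangle marks *Mertk* at its bound. The medians are -2.28 for the 37 macrophage and myeloid genes, -0.95 for other macrophage genes, -2.11 for MHC class II and -0.18 for CD8 T cell genes.

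Outside the 39 genes, the 10 genes most like the anchors within genotype, among those with a mean log2 CPM above 2, were *Zfp945*, *Qrfp*, *E130308A19Rik*, *Arrdc1*, *Gm47512*, *Brat1*, *6720427I07Rik*, *Rap1a*, *Tmem147os* and *Arhgap5*, with r of 0.94 to 0.97 over the 8 samples. None was on a macrophage list. Of these 10 only *Arhgap5* was called, and it was higher in KO (log2 fold change 1.32, SE 0.24, edgeR adjusted p = 0.00136). *Gm47512* was also higher in every KO sample but did not pass the test (log2 fold change 1.39, edgeR adjusted p = 0.0221), and *E130308A19Rik* had a log2 fold change of 0.63 (edgeR adjusted p = 0.0321). A high r within genotype was thus also seen in genes not called lower in KO.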

How the data were processed

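RNA of 8 sorted samples was sequenced as rRNA-depleted directional libraries. Reads were aligned to GRCm38 with STAR and counted per gene with featureCounts by the authors, who deposited the raw counts without normalization. Columns S1 to S8 were named by number alone, without genotype or replicate. The genotype was taken from the supplementary PCA plot of the paper, which names S1 to S4 as WT and S5 to S8 as KO. Names and positions came from GENCODE M21, which matched 55154 of 55335 gene IDs. The 39 genes, the other lists and the limits on r were chosen with earlier results of these data known. All 39 genes could be named. From the other lists, called genes (at most 5, by size), the 3 most abundant and cell type markers at or near 0 were named. Those markers and the 4 macrophage genes called higher were named after their values were seen.

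The whole table was fitted with edgeR 4.0.16 in R 4.3.3 (filterByExpr, TMM, glmQLFit, glmQLFTest, no covariates), and p-values were Benjamini-Hochberg adjusted over 15378 genes. SE was derived from the log2 fold change and the quasi-likelihood F. Log2 CPM used a prior count of 2. WT samples are pools of 2 mice and KO samples single mice, so p-values cover the spread between such samples. On simulated data with these library sizes, the fit recovered 76.3% to 84.0% of genes changed by 2 log2 units and 37.5% to 57.3% of those changed by 1, with at most 4 false calls. Floors of 3 counts cover counting error only. Shared stretches are distinct 42-base words of GENCODE transcripts, and overlapping genes were found by gene span. Alternatives were other scaling, filters, DESeq2 1.42.0, glmTreat, other thresholds and anchors, the anchor score as a covariate, and leaving out each sample.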

Additional observations from a re-analysis of the deposited data

Results flagged for a closer look

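Of 76 groups, formed by the genotypes for each of the 37 genes tested and the anchor score, 5 had a single sample far from the other 3, where chance alone would give 3.8. The gap to the nearest sample made up 0.93 of the range for *Fcgr3* in WT, where S3 had a log2 CPM of 4.05 against 3.24 to 3.30, and 0.833 for *Spi1* in WT, where S3 had 3.45 against 1.84 to 2.11. In KO it was 0.89 for *Pirb*, with S6 high at 1.91 against -0.27 to -0.03, 0.907 for *Axl*, with S6 low at 5.18 against 5.47 to 5.50, and 0.935 for *Trem2*, with S7 low at -3.0 against -0.92 to -0.77. S7 had 0 counts of *Trem2*, so its value is set by the prior count. The parts of these samples in the results were not tested beyond leaving each out.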

How the results depend on the processing

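The difference in anchor score stayed between -3.57 and -3.0 when each sample was left out in turn, and lay between -3.40 and -3.31 under other scaling and prior counts. Of the 20 called genes, 14 kept their call in all 17 alternatives without a covariate. *Adgre1*, *Fcgr2b*, *Fcer1g*, *Mertk*, *Arg1* and *Ms4a7* lost it in at least 1, and 7 genes not called were called in at least 1. The count of genes lower ranged from 13, without S3, to 20, without S6, when each sample was left out, and from 16 with glmTreat to 26 without the low-count filter otherwise. It was 0 of 34 with the anchor score as a covariate, where 1 gene was lower and 4 were higher at an unadjusted p under 0.05, the median SE was 1.02 in place of 0.41, and 0 of all genes were called lower and 13 higher. The count of other macrophage genes lower was 16 with glmTreat in place of 25, and 18 (without S3) to 29 (without S6) when each sample was left out. The number of genes that followed the anchors was 24 at an r of 0.5, 5 at an r of 0.9, and 12 (without S3) to 18 (without S7) when each sample was left out. The number that did not follow was 13 without S3 and 11 with Spearman's rho, against 7. *Cd86* was called higher in every fit without that covariate.

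Genes with differences near 0 changed sign. With each sample left out in turn, log2 fold changes ranged from -0.42 to 0.42 for *Itgam*, from -0.02 to 0.53 for *Lst1* and from -0.11 to 0.09 for *Ctsd*, and *Ctsd* also turned to -0.02 with upper quartile factors and with library size alone. Over all genes, the count lower and higher was 130 and 165 with glmTreat, 531 and 642 without the filter, 461 and 617 with DESeq2, 199 and 347 without S2 and 204 and 409 without S3, against 306 and 447. No paired analysis was possible because the columns carry no replicate numbers. Depth limits what can be said of *Mrc1*, *Cd163*, *Trem2* and *Mertk*, which held few counts.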
